A study of Mus musculus with 2 samples.

Results

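The genes described here encode proteins that find splice sites and choose between them: the SR proteins, the hnRNP proteins, the subunits of SF3A and SF3B, and the U2AF and ZRSR proteins. They were taken by name, as protein-coding genes of the GENCODE mouse annotation whose symbol starts with Srsf, Hnrnp, Sf3a or Sf3b, or is U2af1, U2af2 or Zrsr2. This gave 43 genes of 43346 Ensembl genes in the tables, of which 21461 were nuclear protein-coding, and 249 transcripts of 103639. There were 11 SR genes, 20 hnRNP genes, 9 SF3 genes and 3 U2AF or ZRSR genes. The RNA was total RNA of erythroid progenitors labelled CFU-Ery, the dividing precursors of red blood cells. The mice were C57BL/6J males, 5 to 6 weeks old, and the cells were primary, with a progenitor isolation from bone marrow linked in the labels. The design had 1 group with 2 libraries, biological replicates 1 and 2. The input was 1 ng of RNA a library, with fragments of 150 to 400 nt and added spike-in transcripts. The libraries are separate biosamples of a single donor record, and what the spread between them holds beyond technical error is unknown.

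Splicing removes introns from the primary transcript in a complex built on small nuclear RNAs. U2AF binds the end of the intron, SF3A and SF3B hold the U2 particle at the branch point, SR proteins mostly favour the use of nearby exons, and hnRNP proteins often oppose it. Many genes for these proteins regulate themselves: their RNA can be spliced to include an exon with an early stop codon, a so-called poison exon, or to splice the 3' untranslated region, which sends the RNA to nonsense-mediated decay. SF3B1, SRSF2, U2AF1 and ZRSR2 are recurrently mutated in human myelodysplastic syndromes, in which red cell formation fails. No sequence variant was examined here.

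Nuclear protein-coding genes held 4717790 of 143491647 expected counts in replicate 1 and 4093202 of 110634458 in replicate 2. Mitochondrial genes held 90.3% and 88.3%. Deposited TPM (a level per length) is scaled to a fixed total over all of these, so 1 TPM equals 43.2 and 37.0 TPM when the scaling is over nuclear protein-coding genes alone. All 10 erythroid marker genes stood at 1 TPM or more in both libraries, with summed levels of 368.5 and 425.9 TPM. Of 10 granulocyte markers 8 did so, with sums of 540.9 and 735.6 TPM, led by S100a9 at 172.8 and 249.5 TPM. The T cell and megakaryocyte lists had 0 of 5 and 0 of 6 genes at that level, the B cell list 2 of 6 and the macrophage list 4 of 6. The part of non-erythroid cells in the levels below was not tested. In RNA from bulk cells, fewer cells of a type and less RNA per cell cannot be told apart. For 1 group of 2 libraries, 0.5 is the smallest p of an exact test that flips signs, so values are given per library or as mean ± SD, with no test.

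Most splicing factor genes were well expressed, with SR and hnRNP genes above the SF3 and U2AF genes. At 1 TPM or more in both libraries stood 31 of the 43 genes, or 72.1%, against 12.6% of nuclear protein-coding genes. These were 9 of 11 SR genes, 17 of 20 hnRNP genes, 4 of 9 SF3 genes and 1 of 3 U2AF or ZRSR genes. The median hnRNP gene had 5.20 TPM in replicate 1 and 6.46 in replicate 2, and the median SR gene 4.82 and 5.83. The median SF3 gene had 1.16 TPM in each library, and that of the U2AF and ZRSR genes 1.38 and 1.40. The SR and hnRNP medians therefore stood above those of the SF3 and U2AF genes in both libraries. Among genes at 1 TPM in both libraries, the 31 splicing factors had a median of 5.72 ± 0.651 TPM (SD, n = 2) and the 2701 nuclear protein-coding genes 2.55 ± 0.184. The 43 genes together held 0.887% ± 0.0745 of nuclear protein-coding TPM: the hnRNP genes 0.502% ± 0.0236, the SR genes 0.317% ± 0.0459, the SF3 genes 0.0541% ± 0.00437 and the U2AF and ZRSR genes 0.0146% ± 0.000594. Of the 43 genes, 14 were among the 500 highest of the 21461 nuclear protein-coding genes by mean TPM, all of them SR or hnRNP genes. Below 1 TPM in a library were 12 genes, but 42 of the 43 had at least 50 expected counts in both libraries. The share of all nuclear protein-coding genes with that many counts was not calculated.

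**Figure D1:**
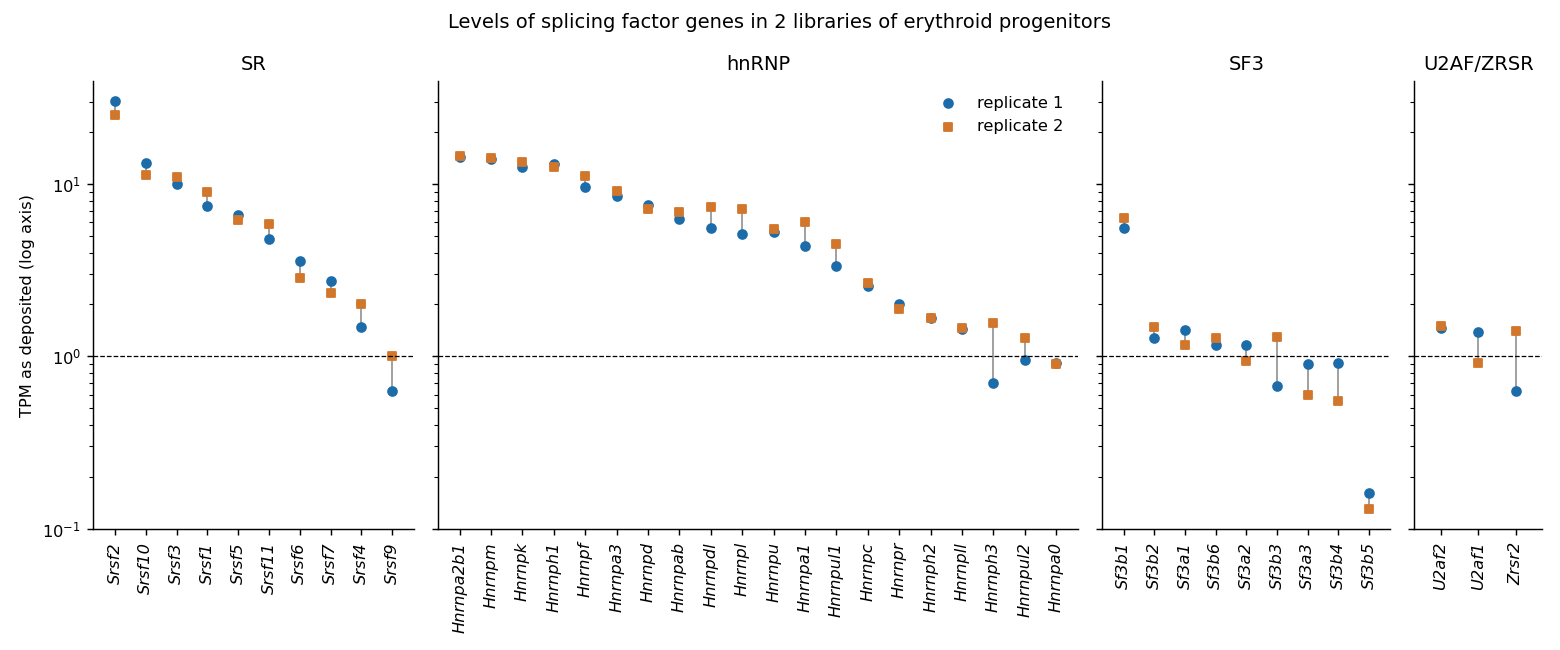
TPM as deposited (log axis) of each splicing factor gene in replicate 1 (circles) and replicate 2 (squares), by family and ordered by mean; grey lines join the libraries and the dashed line marks 1 TPM. Srsf2 is the highest and Sf3b5 the lowest of the genes drawn, and Srsf12, at 0 counts in both libraries, is not drawn.

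U2AF recognises the end of the intron first. U2af2 (ENSMUSG00000030435.11, chromosome 7, 5062143 to 5079938 on GRCm38), whose protein U2AF65 binds the polypyrimidine tract, had 1.47 and 1.51 TPM in replicates 1 and 2. U2af1 (ENSMUSG00000061613.8, chromosome 17, 31647081 to 31658892), whose protein U2AF35 touches the AG that ends the intron, had 1.38 and 0.92 TPM, from 140.6 and 72.7 expected counts. Zrsr2 (ENSMUSG00000031370.8, chromosome X, 163935443 to 163958661), a relative of U2af1 known for its role in the minor spliceosome, had 0.63 and 1.40 TPM. Its counts were close, 181 and 159. The mean transcript length used to scale them was 2296 bases in replicate 1 and 1240 in replicate 2, where Zrsr2-206, a processed transcript of 504 bases, took 61.6% of the gene's TPM from 32.4 counts. The Zrsr2 levels thus differed over 2-fold in TPM and not in counts. The levels of U2af1 are uncertain in another way. Of the 25-base words in its most abundant coding transcript, 65.3% also occur in transcripts of other genes, most of them in Gm10232, so reads could be divided between them. For U2af2 this share was 47.7%.

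In GENCODE M21 the U2af1 transcripts of the tables differ by which of a pair of mutually exclusive exons they carry. The exons are shown because they are what sets the transcripts apart in the annotation. Each is 67 bases long, and capitals mark the 23 positions at which they differ. U2af1-201 uses chr17:31651646-31651712 and U2af1-202 chr17:31652502-31652568 (minus strand, GRCm38, from GENCODE M21). In GENCODE M21 these transcripts are 1046 and 923 bases long and in the tables both are 907, so that the exon of each in the tables is taken from its identifier.
U2af1-201: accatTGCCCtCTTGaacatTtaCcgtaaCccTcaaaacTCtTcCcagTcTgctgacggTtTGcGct
U2af1-202: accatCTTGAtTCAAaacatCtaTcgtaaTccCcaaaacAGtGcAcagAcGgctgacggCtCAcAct
U2af1-201 had 116.5 and 72.7 expected counts and U2af1-202 had 24.1 and 0. U2af1-201 therefore had 82.9% of the gene's TPM in replicate 1 and 100% in replicate 2. The authors' posterior standard deviation of the U2af1-202 count was 6.67 and 3.35 counts.

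Among the SF3 genes, Sf3b1 stood far above the rest in gene total. Sf3b1 (ENSMUSG00000025982.9, chromosome 1, 54985169 to 55027481), the large scaffold of SF3B that clamps the branch point, had 5.58 and 6.36 TPM from 3020 and 2099 counts. Next came Sf3b2, another SF3B subunit, at 1.28 and 1.48 TPM. Sf3a1, the large subunit of SF3A, had 1.43 and 1.16 TPM, and Sf3b6, the small subunit that contacts the branch point adenosine, 1.17 and 1.27. The log2 ratio of Sf3b1 to Sf3b2 was 2.12 in replicate 1 and 2.10 in replicate 2, and that of Sf3b1 to Sf3a1 was 1.96 and 2.45. The gene totals for these subunits of one complex were therefore unequal in both libraries. The gap was smaller between their coding transcripts. Sf3b1-201 had 2.25 and 2.46 TPM, Sf3b2-201 had 1.28 and 1.48, and Sf3a1-201 had 0.68 and 0.95. Sf3a2 had 1.16 and 0.94 TPM, and Sf3b3 0.67 and 1.30. The lowest by mean TPM were Sf3a3 at 0.90 and 0.60 TPM, Sf3b4 at 0.91 and 0.55, and Sf3b5, the smallest subunit of SF3B, at 0.16 and 0.13. Sf3b5 had 76 and 50 counts, and its TPM was scaled by an annotated transcript of 3841 bases. Sf3b4 shares 57.3% of its 25-base words with Gm7935, a processed pseudogene.

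Srsf2 had the highest gene TPM of all splicing factor genes, though not the highest counts. Its coding transcript Srsf2-201 alone had 11.3 and 10.0 TPM. That was below the 14.5 and 14.6 TPM of Hnrnpa2b1, all of it in transcripts that GENCODE M21 types as coding. Hnrnpa2b1-203, with 83.3% and 73.0% of that TPM, is 4086 bases as quantified and 1728 in GENCODE M21. Its type in the annotation that was quantified is therefore uncertain. Srsf2 (ENSMUSG00000034120.14, chromosome 11, 116849901 to 116853094), the SR protein also called SC35, had 30.2 and 25.1 TPM from 4447 and 2946 counts and ranked 83rd among nuclear protein-coding genes. Srsf10, an SR protein that represses splicing when dephosphorylated, came next among the SR genes with 13.2 and 11.4 TPM. Srsf3 (ENSMUSG00000071172.8, chromosome 17, 29032628 to 29043373), the smallest SR protein, had 10.1 and 11.1 TPM. Srsf1 (ENSMUSG00000018379.13, chromosome 11, 88047373 to 88053755), the founding SR protein, had 7.46 and 8.99 TPM. Srsf2 and Srsf10 kept these places in both libraries, and Srsf3 stood above Srsf1 in both. Srsf3 shares 39.6% of its 25-base words with other genes. The genes Srsf5, Srsf11, Srsf6 and Srsf7 lay between 2.33 and 6.61 TPM. Srsf4 had 1.49 and 2.01 TPM, and an opposite-strand gene, Gm12992, overlaps 43.0% of its annotated exon bases. The use of strand in counting is not given, so reads of these genes cannot be told apart. Srsf9 had 0.63 and 1.01 TPM from 86 and 106 counts. Srsf12, a relative of Srsf10, had 0 counts in both libraries, which allows up to 3 counts in each. Srsf10, with 2939 and 2029 counts, therefore had at least 979-fold and 676-fold more counts than Srsf12 against that floor.

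The hnRNP genes formed a broad upper group with no single leader. Hnrnpa2b1 (ENSMUSG00000004980.12, chromosome 6, 51460932 to 51469894), which encodes the A2 and B1 proteins, had 14.5 and 14.6 TPM from 6774 and 4964 counts, the highest counts of any splicing factor gene. Hnrnpm had 14.1 TPM in each library, and March2, a gene on the same strand, overlaps 14.7% of its exon bases. Hnrnpk (ENSMUSG00000021546.13, chromosome 13, 58391142 to 58403343), a protein that binds C-rich RNA, had 12.6 and 13.4 TPM. Hnrnph1, which binds G-rich stretches, had 13.1 and 12.7 TPM. Hnrnpk stood below Hnrnph1 in replicate 1 and above it in replicate 2, and Hnrnpk shares 39.3% of its 25-base words with other genes. The genes Hnrnpf, Hnrnpa3, Hnrnpd, Hnrnpab, Hnrnpdl, Hnrnpl and Hnrnpu lay between 5.13 and 11.2 TPM, and Hnrnpul1, Hnrnpc, Hnrnpr, Hnrnph2 and Hnrnpll between 1.45 and 4.48. Of these, Hnrnpf shares the most 25-base words with other genes, 63.3%. In the middle, Hnrnpa1 (ENSMUSG00000046434.11, chromosome 15, 103240432 to 103246692), the best known antagonist of SR proteins, had 4.39 and 5.99 TPM. Hnrnpa1 shares 55.0% of its 25-base words with 51 other genes, so its level is uncertain. At the lower end were Hnrnph3 at 0.70 and 1.56 TPM, Hnrnpul2 at 0.95 and 1.27, and Hnrnpa0 at 0.91 and 0.90. Hnrnph3 and Zrsr2 were the 2 genes with TPM over 2-fold apart between the libraries.

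Related genes and subunits of one complex were compared in pairs, by gene totals over all transcript types. Of 11 pairs with a ratio, 6 differed more than 2-fold in TPM in the same direction in both libraries. Srsf3 exceeded Srsf7, its nearest relative, by 2.06 ± 0.26 in log2 TPM (SD, n = 2). The gap was smaller between coding transcripts: Srsf3-202 had 4.21 and 4.5 TPM and Srsf7-201 had 2.75 and 2.33. Srsf2 exceeded Srsf1 by 1.75 ± 0.38 in log2 TPM and by 0.52 in log2 counts, which are not scaled for length. Hnrnpul1 exceeded Hnrnpul2 by 1.81 and 1.82 in log2 TPM. Hnrnpa1 stood below Hnrnpa2b1, with a log2 TPM ratio of -1.72 and -1.28. The 2 ratios to Sf3b1 given above, also with a smaller gap between coding transcripts, complete the 6. Srsf6 over Srsf4 was 1.26 and 0.50. U2af1 over U2af2 was -0.09 and -0.71 in log2 TPM, and -1.44 and -2.01 in log2 counts. The ratio of U2af1 to Zrsr2 was 1.13 in replicate 1 and -0.61 in replicate 2, so that its sign differed between the libraries. In gene totals, the pairs Hnrnpd with Hnrnpdl and Hnrnph1 with Hnrnpf were close to even. Their log2 TPM ratios were 0.21 ± 0.34 and 0.31 ± 0.18, and both log2 ratios were negative in counts (-0.49 and -0.28). Coding transcripts held 19.2% and 25.5% of Hnrnph1 TPM and all of Hnrnpf TPM. Ratios of coding transcripts alone were not calculated for the pairs.

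A large part of the RNA of several splicing factor genes lay in transcripts annotated as targets of nonsense-mediated decay or as keeping an intron. The 249 transcripts were 127 protein-coding, 63 retained intron, 34 processed and 24 nonsense-mediated decay transcripts in GENCODE M21, and 1 had no match there. Of the 31 genes at 1 TPM in both libraries, 15 had more than 10% of their TPM in decay and retained intron transcripts in both libraries, or 48.4%, against 31.3% of nuclear protein-coding genes at that level. Among genes for which such a transcript is annotated at all, these were 15 of 18 genes, or 83.3%, against 57.0%. Of all 31 genes at 1 TPM in both libraries, with or without such an annotation, they were 6 of 9 SR genes and 7 of 17 hnRNP genes. They were also 2 of 4 SF3 genes and 0 of 1 U2AF gene, and the 31.3% is the share to set beside these. The median share over the 18 genes was 40.9% in replicate 1 and 28.5% in replicate 2, against 20.0% and 20.3% over all 1485 genes with such a transcript.

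**Figure D2:**
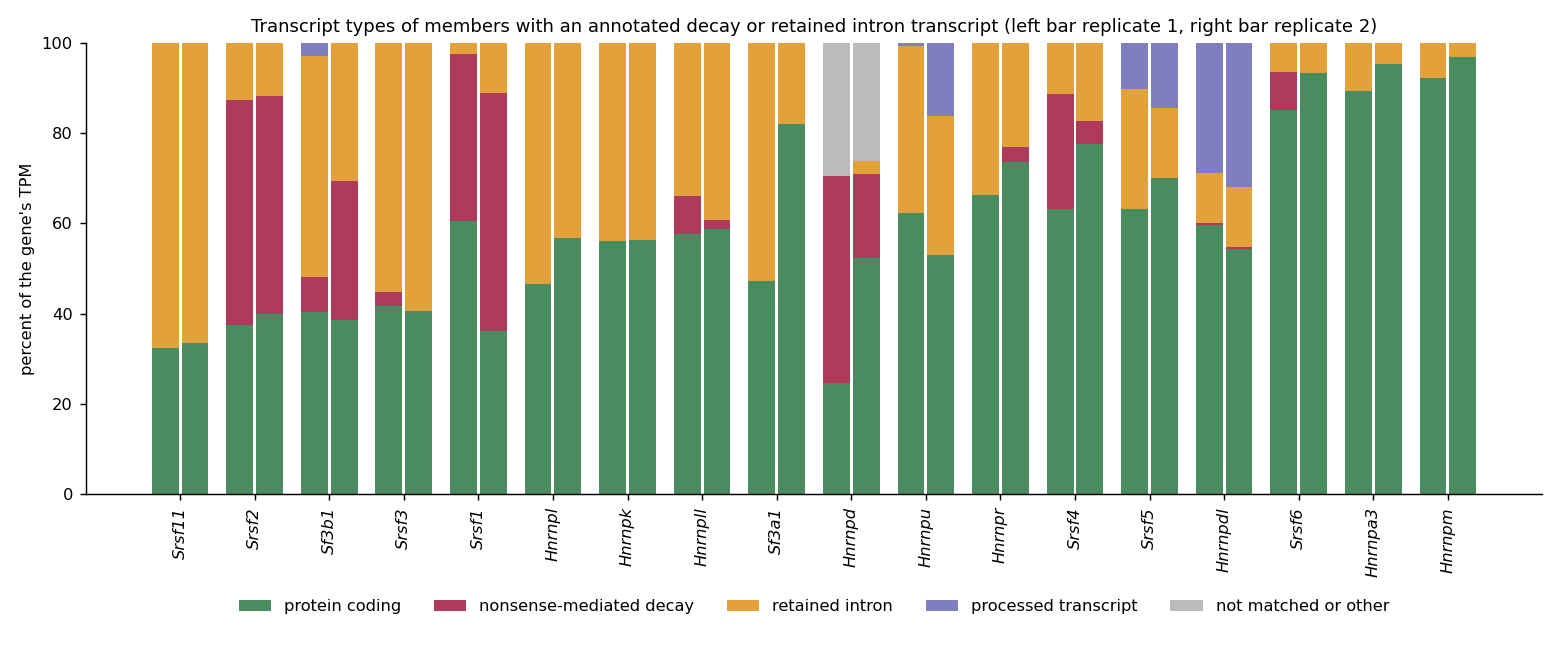
Percent of each gene's TPM by annotated transcript type, for the 18 splicing factor genes at 1 TPM in both libraries with an annotated decay or retained intron transcript; the left bar of a pair is replicate 1 and the right bar replicate 2. The protein-coding part of Srsf11, Srsf2, Sf3b1 and Srsf3 lies between 32.4% and 41.8%.

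The share depended on the scale. Most of these transcripts are short, and TPM divides counts by length. In 14 of the 18 genes the share of TPM was above the share of expected counts in both libraries, and the other 4 were Hnrnpl, Hnrnpll, Srsf4 and Srsf5. By counts 10 of the 18 genes passed 10% in both libraries, or 55.6%, against 43.8% of all genes with such a transcript, and the median share was 27.8% and 19.7% against 10.8% and 10.3%. The 5 genes that passed by TPM and not by counts were Srsf1, Sf3a1, Hnrnpd, Hnrnpu and Hnrnpdl. Hnrnpu shows the gap: its retained intron transcripts had 37.0% and 30.6% of TPM but 4.37% and 4.10% of counts. This comparison of scales was chosen after the data were seen.

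**Figure D3:**
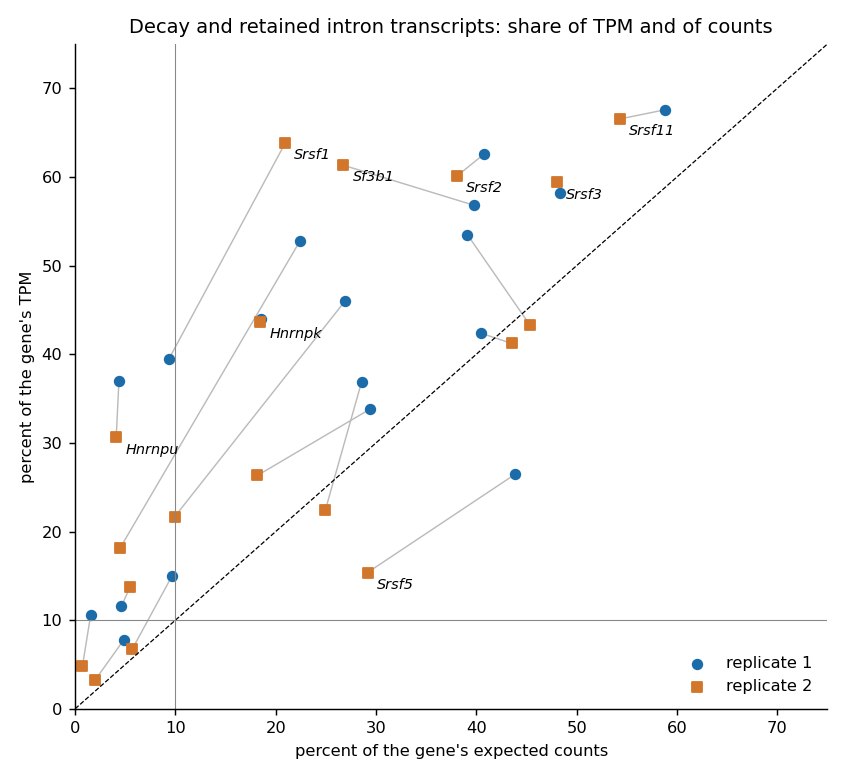
Share of decay and retained intron transcripts in each gene's expected counts (horizontal axis) and TPM (vertical axis), in percent, for the same 18 genes; circles are replicate 1, squares replicate 2, grey lines join the libraries of a gene, solid lines mark 10% and the dashed line equality. Most points lie above equality, with Srsf5 well below it.

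Srsf2 kept most of its counts in coding RNA and most of its TPM outside it. Srsf2-201, the full coding transcript, had 2628 and 1824 counts, or 37.3% and 39.9% of TPM. Srsf2-204, a decay transcript of 620 bases, had 966 and 599 counts, or 49.95% and 47.98% of TPM and 21.7% and 20.3% of counts. Srsf2-203, which keeps the whole second intron of Srsf2-201 (1059 bases), had 848 and 511 counts, or 12.7% and 11.8% of TPM. Both libraries gave nearly the same split. Every base and both junctions of Srsf2-204 also occur in annotated coding transcripts, so no base and no junction is its own, and its share rests on how the authors' tool divided reads. Structure was examined only for transcripts with the same length in GENCODE M21, and genes below 1 TPM in a library were included. Among these, 19 decay and retained intron transcripts held 10% or more of a gene's TPM in both libraries. Srsf2-204 was the 1 transcript of the 19 with no base and no junction of its own. Of those 19, 17 have bases outside all coding transcripts and 4 have a junction that no coding transcript has. The genes Mettl23 and Mfsd11 overlap Srsf2 exons on the opposite strand, over 15.6% and 9.74% of its exon bases.

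Srsf1 had a decay transcript, Srsf1-204, that joins exon 3 of the long coding transcript to a site inside its last exon and then splices out a further piece of that exon. Srsf1-204 had 278 and 370 counts, or 37.1% and 52.5% of TPM and 8.98% and 18.0% of counts. Srsf1-205, the long coding transcript, had 2443 and 1463 counts, or 47.4% and 30.1% of TPM. The transcript with the most TPM was thus Srsf1-205 in replicate 1 and Srsf1-204 in replicate 2. The bases at both junctions of Srsf1-204 that no coding transcript has are shown because reads across them set it apart from coding transcripts. The other decay and retained intron transcripts of Srsf1 were not compared at these junctions. Each is 15 bases before and 15 after the junction, with the downstream side in capitals, and the introns removed lie between chromosome 11 positions 88049215 and 88049977 and between 88050095 and 88050977 (plus strand, GRCm38, from GENCODE M21).
Srsf1-204, upstream junction: tttagatctcacgagACATATCTGAAGAGA
Srsf1-204, downstream junction: ataatggaggcaatgGTTTGGATTGGAGAG
Srsf1 shares no 25-base word with another gene in its most abundant coding transcript, and neither do Srsf2, Srsf6, Srsf4, Srsf11 and Sf3b1.

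Sf3b1 had most of its TPM outside coding RNA in each library, in different transcripts in each. Sf3b1-201, the coding transcript, had 40.4% and 38.6% of TPM from 1806 and 1537 counts. Sf3b1-203, which keeps the whole of intron 4 of the 24 introns of Sf3b1-201 (chromosome 1, 55014563 to 55016375, 1813 bases), had 607 and 225 counts, or 25.2% and 10.5% of TPM. Sf3b1-208, a decay transcript of 600 bases, had 27.1 and 92.7 counts, or 7.92% and 30.6% of TPM but 0.898% and 4.42% of counts. Its own exon is 56 bases long and lies inside that same intron. The start of this exon is shown because it carries the early stop codon, in capitals (chr1:55014905-55014924, minus strand, GRCm38, from GENCODE M21).
Sf3b1-208: gcttctattctgctgctTGA
Together, decay and retained intron transcripts had 56.8% and 61.3% of Sf3b1 TPM and 39.8% and 26.8% of its counts. The retained intron part was larger in replicate 1 and the decay part larger in replicate 2.

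Srsf6 and Srsf4, which are close relatives, each have a poison exon in the annotation, and the decay transcripts Srsf6-201 and Srsf4-203 had few counts. The Srsf6-201 exon is 268 bases long, but only 103 bases of Srsf6-201 lie outside annotated coding transcripts, so the exon is partly shared with them. Srsf6-204, a retained intron transcript with 83.4 and 53.8 counts, holds the whole intron around it. The exons are shown from their first base to the early stop codon, in capitals. That of Srsf6-201 is at chr2:162932815-162932966 and that of Srsf4-203 at chr4:131884276-131884390 (plus strand, GRCm38, from GENCODE M21).
Srsf6-201: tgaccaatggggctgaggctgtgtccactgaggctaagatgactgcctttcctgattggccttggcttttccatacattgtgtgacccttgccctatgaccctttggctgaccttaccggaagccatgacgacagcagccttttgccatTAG
Srsf4-203: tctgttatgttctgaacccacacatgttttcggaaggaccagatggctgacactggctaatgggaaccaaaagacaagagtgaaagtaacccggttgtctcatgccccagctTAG
Srsf6-201 had 61.2 counts in replicate 1 and 0 in replicate 2, and Srsf4-203 had 22.3 and 7.30. In TPM these were 8.51% and 0% of Srsf6 and 15.9% and 4.94% of Srsf4. The coding transcript Srsf6-203 held 85.1% and 89.6% of Srsf6 TPM, and Srsf4-202 held 63.2% and 77.8% of Srsf4 TPM.

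Srsf11, Srsf3, Hnrnpl, Hnrnpk and Hnrnpll had their share mainly in retained intron transcripts. Srsf11, an SR-related protein, had the largest share of all, 67.6% and 66.6% of TPM and 58.8% and 54.3% of counts. Its 3 main retained intron transcripts, Srsf11-203, Srsf11-208 and Srsf11-213, each hold part of the same intron, intron 3 of the 12 introns of Srsf11-204. Srsf3 had 55.3% and 59.4% of TPM in transcripts that GENCODE M21 types as retained intron, mainly Srsf3-205 and Srsf3-204. Their lengths in the tables differ from GENCODE M21 (910 against 2110 bases for Srsf3-205), so their type in the annotation that was quantified is uncertain and their structure is not described. Hnrnpl, which binds CA-rich RNA, had 53.5% and 43.3%, and Hnrnpk 44.0% and 43.7%. Hnrnpll, a relative of Hnrnpl, had 42.4% and 41.2% of its TPM in decay and retained intron transcripts together. Its retained intron transcripts alone had 34.0% and 39.2% of its TPM. Hnrnpd, which binds AU-rich RNA, had its share mainly in decay transcripts, 46.0% and 18.6% of TPM, against 0% and 3.06% in retained intron transcripts. Whole introns were held in Hnrnpk-217 (intron 9 of Hnrnpk-221, 78 bases), Hnrnpl-210 (intron 11 of Hnrnpl-202, 118 bases), Hnrnpr-211 (intron 9 of Hnrnpr-201, 121 bases) and Srsf5-212 (1229 bases). These whole introns ranged from the 78 bases in Hnrnpk to the 1813 bases in Sf3b1. Total RNA holds nuclear and unfinished RNA as well as mRNA, and the shares of these were not measured.

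Some genes had no clear main transcript. The smallest leading share was in Hnrnpk, at 23.2% and 20.7% of TPM for the highest of its 21 transcripts, then in Srsf10 at 28.3% and 29.5%, Hnrnpd at 29.4% and 31.7%, Hnrnpr at 28.1% and 34.0%, and Srsf11 at 32.5% and 33.4%. Srsf10 and Hnrnph1 had much of their TPM in transcripts annotated as processed, without a coding sequence: 54.8% and 55.0% of Srsf10, and 80.8% and 74.5% of Hnrnph1. In counts these were 14.6% and 20.4% of Srsf10 and 64.1% and 58.6% of Hnrnph1. The leading transcript differed between the libraries in 8 of 28 splicing factor genes with several transcripts, or 28.6%, against 22.2% of such nuclear protein-coding genes: Srsf1, Srsf3, Hnrnpa3, Hnrnpd, Hnrnph2, Hnrnpk, Hnrnpl and Hnrnpr. In Hnrnph2, Hnrnph2-205 had 421 and 31.1 counts and Hnrnph2-202 had 0 and 283. Both encode protein, and the gene as a whole had 1.66 TPM in each library. In 7 of the 31 genes the transcript with the largest mean share was shorter than 1000 bases, such as Hnrnpm-204, a coding transcript of 634 bases with 73.9% and 76.9% of Hnrnpm TPM.

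Gene totals of the splicing factors were close between the libraries. The log2 ratio of counts, replicate 1 over replicate 2, was centred on its median over all genes (0.21). None of 42 splicing factor genes was more than 2-fold apart, while of 9878 genes with a mean count of at least 20, 9.58% were so in favour of replicate 1 and 8.94% in favour of replicate 2. Low counts spread more: of the 5594 genes with a mean count of at least 100, 5.42% were 2-fold apart in either direction. The median size of the log2 ratio was 0.22 in splicing factor genes, 0.39 in all genes and 0.26 in all genes of at least 100 counts. It was 0.09 in hnRNP genes, 0.38 in SR genes and 0.31 in SF3 genes. The signed median, which the centring sets to 0 for all genes, was 0.35 in SR genes, 0.00 in hnRNP genes, 0.12 in SF3 genes and 0.17 in U2AF and ZRSR genes.

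**Figure D4:**
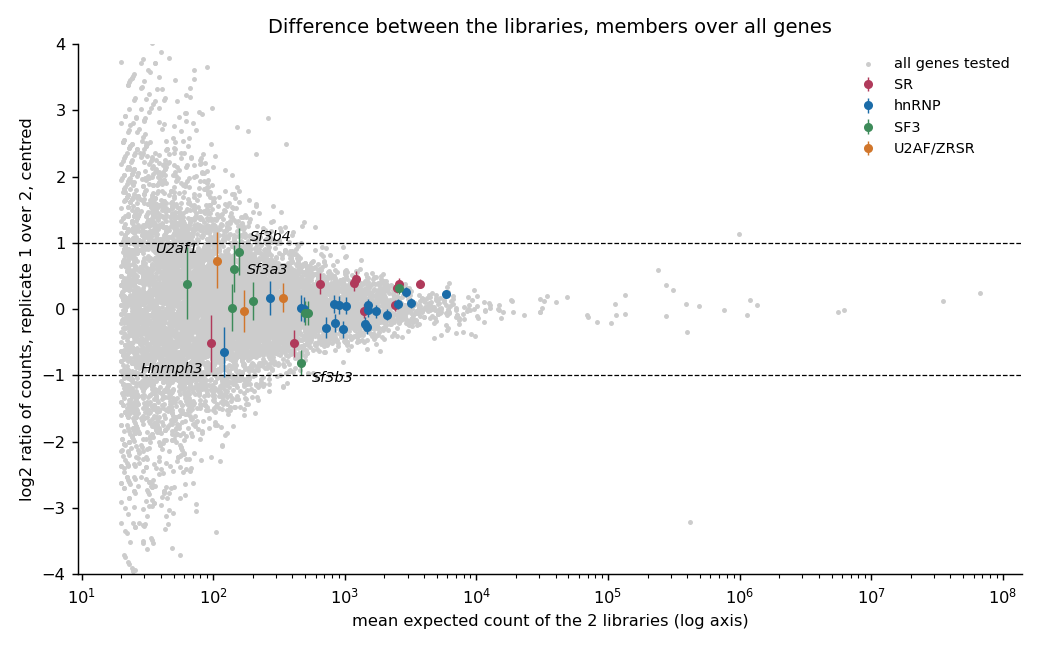
Log2 ratio of expected counts, replicate 1 over replicate 2, centred on the median of all genes, against the mean expected count (log axis); grey points are all genes with a mean count of at least 20, coloured points the splicing factor genes with 95% exact binomial intervals, and dashed lines mark 2-fold. The coloured points lie between -0.81 and 0.87, and 97 grey points lie beyond the drawn range.

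Of the 5 genes furthest apart, 4 encode SF3 or U2AF subunits, while 9 SF3 and 3 U2AF or ZRSR genes were among the 42 compared. Depth goes along with family here: U2af1 had 140.6 and 72.7 counts and Sf3a3 184 and 104, and low counts spread more. The part of depth in this was not tested. Sf3b3, an SF3B subunit next to Sf3b1, had 371 and 560 counts, a centred log2 ratio of -0.81 with a 95% interval of -1.0 to -0.62. Sf3b4, which contacts the RNA near the branch point, had 214 and 101 counts, a log2 ratio of 0.87 (0.52 to 1.23). U2af1 had a log2 ratio of 0.73 (0.32 to 1.16), Sf3a3 one of 0.61 (0.25 to 0.97), and Hnrnph3, with 103 and 139 counts, one of -0.65 (-1.03 to -0.27). These intervals, exact binomial on the rounded counts, cover counting error at most. They take the estimated counts as exact and each read as an independent molecule. Copies made by PCR are not independent molecules, so the intervals can be too narrow. Of 42 genes, 13 had an interval above 0 and 9 one below it, while 29.4% and 28.6% of all 9878 genes had such intervals. The other 20 held 0. In centred counts Sf3b3 stood higher in replicate 2 and Sf3b4 and Sf3a3 higher in replicate 1, although all are SF3 subunits.

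The other genes of splicing were compared by list. Of 35 SR-like and other regulators, 28 stood at 1 TPM or more in both libraries, with a median of 3.92 ± 0.170 TPM (SD, n = 2). The highest were Rbm38, an RNA-binding protein active in late erythroid splicing, at 16.0 and 23.5 TPM, Rbm39 at 14.2 and 11.9, and Srrm2 at 10.8 and 14.8. The lowest were Mbnl2, at 0.37 and 0.26 TPM, and Rbfox2, with 1 count and 0. Core proteins of the U1 and U2 particles had a median of 1.38 ± 0.389 TPM with 8 of 13 genes at 1 TPM, led by Snrpg at 8.57 and 10.5, Snrpe at 6.33 and 7.90 and Snrpd1 at 2.53 and 2.54. Snrpd3, at 0.11 and 0.57 TPM, and Snrpn, with no count, were the lowest of these. The tri-snRNP and LSm proteins had 12 of 21 genes and 1.66 ± 0.354 TPM. Their range ran from Eftud2, a U5 protein, at 3.24 and 2.47, Lsm6 at 1.92 and 3.77 and Snu13 at 2.43 and 2.87 down to Prpf6 at 0.28 and 0.36 and Sart1 at 0.26 and 0.33. The SF3B partners and U2-associated proteins had 7 of 11 genes and 1.35 ± 0.304 TPM, led by Sf1, the branch point binding protein, at 3.66 and 4.0, Dhx15 at 2.76 and 3.29 and Phf5a, an SF3B subunit, at 2.85 and 2.84. Htatsf1, at 0.86 and 0.35 TPM, and Sugp1, at 0.23 and 0.19, were the lowest there. The Prp19 complex and step 2 factors were lower, with 4 of 14 genes and 0.548 ± 0.0672 TPM, as were minor spliceosome proteins, with 3 of 7 genes and 0.445 ± 0.0636. Dhx16 at 3.30 and 5.57, Bcas2 at 3.46 and 3.48 and Cdc5l at 1.88 and 1.61 TPM led the Prp19 list, which ended with Xab2 at 0.21 and 0.35 and Dhx38 at 0.21 and 0.20. Zcrb1 at 4.48 and 2.81, Rnpc3 at 1.5 and 2.84 and Snrnp25 at 1.28 and 1.45 TPM led the minor spliceosome list, which ended with Zmat5 at 0.13 and 0.36 and Snrnp35 at 0.04 and 0.22.

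The kinases that phosphorylate SR proteins were uneven, and 5 of the 7 genes of SR protein kinases and transport stood at 1 TPM in both libraries. Clk1, a nuclear kinase, had 18.1 and 15.2 TPM, Clk4 6.91 and 6.82, and Clk3 3.34 and 4.35. The cytoplasmic SR protein kinases were the lowest of this list of 7, Srpk1 at 0.36 and 0.51 TPM and Srpk2 at 0.15 and 0.24. The CLK genes, with Clk2 the lowest of them at 1.26 and 1.18 TPM, stood above the SRPK genes in TPM in both libraries. In counts Clk2, at 193 and 172, was below Srpk1, at 210 and 184. Of 15 factors of nonsense-mediated decay 7 stood at 1 TPM in both libraries, with a median of 1.07 ± 0.0919 TPM. Eif4a3, a core protein of the exon junction complex, had 2.54 and 3.76 TPM, and Magoh, another protein of that complex, 1.71 and 1.87. Upf1, the central helicase of the pathway, had 0.43 and 0.55 TPM from 252 and 253 counts, and the lowest were Magohb and Smg8, at 0.25 and 0.36 and at 0.08 and 0.06.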

How the data were processed

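Both CFU-Ery libraries had been quantified separately by the authors, against GENCODE M4 on mm10 as the deposited descriptions state. Which aligner and quantifier they used, and whether strand was used, is not given in the sources used here. Expected counts, as deposited, are estimates and need not be whole. Deposited TPM is scaled over all entries of a file. Isoform percent, also deposited, is the part of a gene's TPM in a transcript. The authors' posterior mean TPM served as an alternative, and their posterior standard deviation of a count was treated as a score and used only to describe U2af1-202.

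Names, types, coordinates (1-based) and sequences came from GENCODE M21 on GRCm38, matched by Ensembl identifier; 223 of 249 transcripts have the same length there. Members, lists and rules were chosen with earlier results of these data known. Named genes were the 4 highest and 3 lowest of each family, 8 key genes, the 5 furthest apart, the 8 with the largest decay and retained intron share, the 5 with the smallest leading transcript, and 3 highest and 2 lowest of other lists, of which 1 gene is not reported here. Count ratios used log2(count + 0.5). The 2-fold call was tested on simulated counts with counting error alone: 100% of 200 genes changed 4-fold were recovered, and 31 of 9702 others were called. The changed genes were drawn from those with a mean count of at least 100. In the data 18.5% of 9878 genes were called between the libraries, so the simulation gives no error rate for them and checks only the calculation. Expected counts were rounded for edgeR 4.0.16 and DESeq2 1.42.0, used for scaling only (R 4.3.3); the rest used Python 3.11.15, pandas 2.3.3 and scipy 1.17.1. Protein sequences were not used here, so the planned protein comparison was not made.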

Additional observations from a re-analysis of the deposited data

How the results depend on the processing

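The splicing factor genes at 1 TPM numbered 31. They were 17 at a minimum of 5 TPM and between 33 and 36 when only 1 library was used. They were 32 by posterior mean TPM and 42 on rescaled TPM or with at least 10 counts. Family medians moved by more than the spread of the libraries in these cases. Over genes at 1 TPM only, they were 6.40 TPM for SR, 1.37 for SF3 and 1.49 for U2AF and ZRSR genes. By posterior mean TPM they were 1.22 for SF3 and 1.44 for U2AF and ZRSR genes. No splicing factor gene was over 2-fold apart under edgeR TMM, DESeq2 size factors, log2(TPM + 1), log2(TPM + 0.1), no minimum or a minimum of 100 counts. The edgeR and DESeq2 shifts, 0.211 and 0.213, were almost the centring used, 0.214, so they could hardly change the call. Adding 1 TPM shrinks the ratios of genes near 1 TPM, such as Zrsr2 from -1.15 to -0.51. With TPM uncentred and nothing added, 2 genes were over 2-fold apart, Hnrnph3 and Zrsr2. Over all genes the share that was ran from 0.628% with log2(TPM + 1) through 5.42%, 10.4% and 18.5% to 41.2% with no minimum. The genes with over 10% in decay and retained intron transcripts, 15, were 10 by counts (24.1% of all genes) and 12 at over 20% (23.3%). With 1 library they were 15 or 17, and with a mean count of at least 200 they were 16 of 34 (28.2%). Pairs over 2-fold apart, 6, were 7 by counts and 6 or 8 with 1 library. By counts Srsf2 over Srsf1 left and U2af1 over U2af2 and Srsf6 over Srsf4 entered. No paired analysis was possible because there is 1 group. Depth limits the low genes, such as U2af1 with 72.7 counts in replicate 2, and the transcript shares of low genes more so. The planned protein comparison was not run.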
